A study of Homo sapiens with 3 samples.

Results

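Homeobox genes of 9 developmental families (IRX1 to IRX6, DLX1 to DLX6, SIX2 to SIX6, LHX1 to LHX6 with LHX8 and LHX9, MSX1, MSX2, EN1, EN2, OTX1, OTX2, EMX1, EMX2 and GSC) were examined for peaks of PHF13, a PHD-finger protein that binds methylated histone H3, and of EZH2, the catalytic subunit of Polycomb repressive complex 2 (PRC2). The 34 genes were taken by family name from 20162 protein-coding genes of the GENCODE annotation on GRCh37 (hg19), and a peak was given to a gene when any base of it lay within 5 kb of a transcription start site (TSS) of that gene or inside the gene body. This gave 38 of the 21639 EZH2 peaks and 2 of the 19039 PHF13 peaks, none of them shared between these genes. The study sequenced 3 libraries from wild-type, untreated PANC-1 cells, an established line from a human pancreatic ductal carcinoma: 1 chromatin immunoprecipitation (ChIP-seq) with an antibody against PHF13, 1 against EZH2, and 1 input, which served as the control in peak calling. Cells from 1 plate were crosslinked with EGS and with formaldehyde. With 1 library per antibody there was no replicate check, so no p-value between groups of genes could be given, and the counts describe these 2 peak lists.

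These genes encode transcription factors that bind DNA through a homeodomain and set regional identity in the embryo. They act in the forebrain and midbrain (OTX, EMX, EN, many LHX genes), in the craniofacial skeleton and limb (DLX, MSX), in the eye and kidney (SIX2, SIX3, SIX6), in heart and neural tube (IRX) and in the gastrula organizer (GSC). PRC2 places the repressive mark H3K27me3 on histone H3, and in cells that do not use them, the CpG-rich starts of such genes are textbook sites of PRC2, often as wide domains that also carry H3K4me3 and are then called bivalent or poised.

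Sequences from the summits (the position of highest coverage in a peak) are shown first, because base composition was the feature most of these peaks had in common. They are read from GRCh37 on the strand of the gene, 5′ to 3′, and leave out untranslated exon sequence. Not all of them are coding. The summit lay in a coding exon for EN2, GSC and EMX1, in an intron for DLX1, and upstream of the gene for LHX6 and OTX2. For EN2 (chr7:155251404-155251553, plus strand), GSC (chr14:95236039-95236188, minus strand) and EMX1 (chr2:73145376-73145525, plus strand), the 150 bp lie in wide EZH2 peaks, and CpG dinucleotides are in capitals. The DLX1 stretch (chr2:172949626-172949742, plus strand) lies in a PHF13 peak, with CpG again in capitals. The LHX6 stretch (chr9:124991906-124992038, minus strand) lies in the EZH2 peak with the lowest CpG ratio and holds no CpG. The OTX2 stretch (chr14:57283597-57283700, minus strand) lies in the only EZH2 peak with an AP-1 site, TGACTCA or TGAGTCA, which is in capitals there. Such a site, on either strand within 200 bp at the summit, was found in 1.89% of the other EZH2 peaks at protein-coding genes.
EN2: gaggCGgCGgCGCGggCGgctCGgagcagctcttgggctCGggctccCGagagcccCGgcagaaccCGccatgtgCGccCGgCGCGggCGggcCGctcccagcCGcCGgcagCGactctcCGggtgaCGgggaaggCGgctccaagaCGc
GSC: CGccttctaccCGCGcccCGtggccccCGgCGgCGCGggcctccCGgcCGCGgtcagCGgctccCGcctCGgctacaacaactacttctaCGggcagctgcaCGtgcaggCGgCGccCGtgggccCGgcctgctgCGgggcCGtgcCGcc
EMX1: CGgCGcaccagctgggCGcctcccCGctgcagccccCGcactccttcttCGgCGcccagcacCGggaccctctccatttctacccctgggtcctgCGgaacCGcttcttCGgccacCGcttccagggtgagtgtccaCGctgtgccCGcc
DLX1: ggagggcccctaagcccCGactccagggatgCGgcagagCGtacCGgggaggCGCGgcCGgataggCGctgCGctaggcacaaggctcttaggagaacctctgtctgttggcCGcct
LHX6: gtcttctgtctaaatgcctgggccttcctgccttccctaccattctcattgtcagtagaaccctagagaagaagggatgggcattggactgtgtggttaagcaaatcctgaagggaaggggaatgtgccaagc
OTX2: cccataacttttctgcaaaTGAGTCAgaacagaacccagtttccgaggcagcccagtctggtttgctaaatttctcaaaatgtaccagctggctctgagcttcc
The EN2 and GSC stretches hold 23 CpG each, the EMX1 stretch 14 and the DLX1 stretch 10.

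To ask which of these genes carry either protein in PANC-1 cells, genes with a peak were counted. An EZH2 peak was present at 21 of the 34 genes (61.8%, 95% Wilson interval 45.0 to 76.1, which covers counting error only), compared with 30.0% of all protein-coding genes under the same rule. A PHF13 peak was present at 2 of the 34 genes (5.88%, 1.63 to 19.1), DLX1 and DLX4, compared with 31.2% of all protein-coding genes. Neither of these had an EZH2 peak. Hence, 0 of the 34 genes had both, which allows a share of up to 10.2%. Of all protein-coding genes, 12.6% had both, and 5.33% when the gene body was left out. A PHF13 peak that overlapped an EZH2 peak was present at 1.99%. Only the 12.6%, which includes the gene body, lies above that limit. The remaining 11 genes, IRX1, IRX2, IRX5, IRX6, DLX2, SIX4, SIX5, SIX6, LHX1, LHX8 and EN1, had neither.

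Gene length and base composition enter such shares. The median length of the 34 genes was 6343.5 bp, compared with 27220 bp for all protein-coding genes, and a long gene body takes up more peaks. Without the gene body, the counts stayed at 21 and 2 genes, and the shares of all protein-coding genes were 23.6% for EZH2 and 21.0% for PHF13. Among genes no longer than LHX4, the longest of the 34 (48721 bp), they were 21.1% and 20.5%. A CpG-rich start, defined as 0.6 or more of the CpG number expected from base composition (the CpG ratio) in the 1000 bp around the 5′ end of the gene record, was found for 29 of the 34 genes and for 59.6% of protein-coding genes. Of all genes with such a start, 30.6% had an EZH2 peak and 36.0% a PHF13 peak. Of the 29, 17 had an EZH2 peak and 2 a PHF13 peak.

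**Figure D1:**
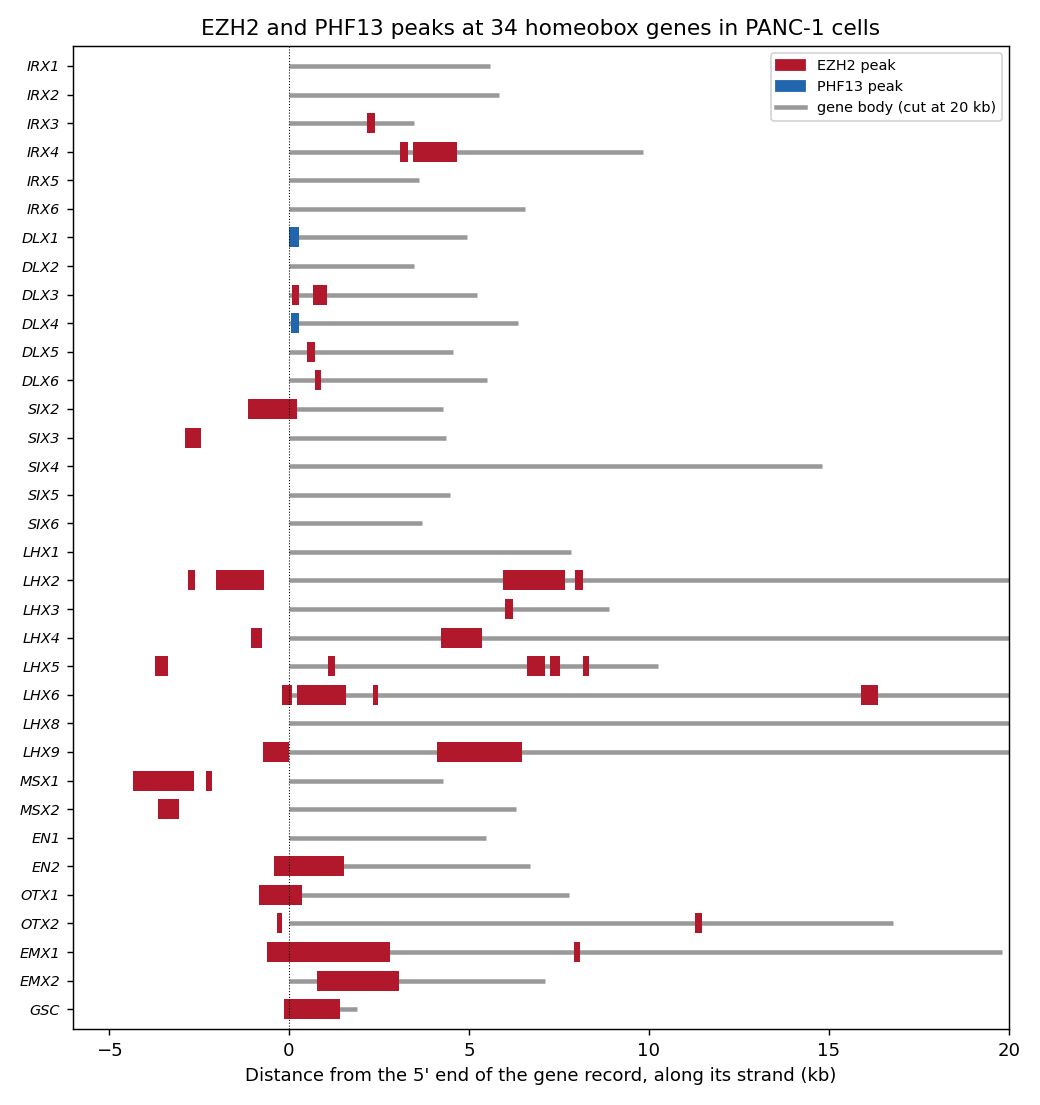
Peaks at each of the 34 genes, drawn to scale along the gene's strand: the x axis is the distance in kb from the 5′ end of the gene record (dotted line), grey lines are gene bodies cut at 20 kb, red boxes are EZH2 peaks and blue boxes PHF13 peaks. EZH2 boxes appear at 21 genes and blue boxes only at DLX1 and DLX4, and no gene has both.

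The families differed in how many of their genes had an EZH2 peak. It was present at all of MSX (2 of 2), OTX (2 of 2), EMX (2 of 2) and at GSC, at 6 of 8 LHX genes, 3 of 6 DLX genes, 1 of 2 EN genes, 2 of the 5 genes SIX2 to SIX6 and 2 of 6 IRX genes. The LHX genes together held 18 of the 38 EZH2 peaks and 12128 bp of the 29899 bp covered. In contrast, the 4 EZH2 peaks of the DLX genes covered only 990 bp, and none exceeded 1 kb.

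The widest EZH2 peak of the 34 genes was at EMX1, which patterns the cerebral cortex (ENSG00000135638, plus strand, chr2:73143389-73163200). It spanned 3423 bp (chr2:73142771-73146193), covered a TSS, had its summit in a coding exon and ranked as number 2 of all 21639 EZH2 peaks by width. Its summit held 198 fragments over a local background of 72.6, an enrichment of 2.70-fold at a −log10 q of 29.3. A second, weak peak of 190 bp (chr2:73151295-73151484) had a fold enrichment of 1.77. EMX1 thus had the most EZH2-covered sequence, 3613 bp. EMX2, its paralog in cortex and urogenital development (ENSG00000170370, chr10:119301956-119309057, plus strand), had 1 peak of 2257 bp (chr10:119302746-119305002) over an internal TSS, at 3.27-fold enrichment and a −log10 q of 26.6. Both EMX genes were therefore covered by 1 wide domain near the 5′ end.

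The highest −log10 q was at EN2, a gene of the midbrain and hindbrain boundary (ENSG00000164778, chr7:155250824-155257526, plus strand). Its single peak of 1945 bp (chr7:155250397-155252341) covered the TSS, and the summit, in a coding exon 655 bp downstream, held 142 fragments over a background of 30.3. It was enriched 4.56-fold at a −log10 q of 44.1, rank 389 in the EZH2 list. Its paralog EN1, which acts in the same brain region and in the limb, had no peak of either list, and the closest EZH2 peak was 8129 bp from a TSS, 230 bp wide and weak (−log10 q of 2.24). GSC, the smallest gene of the 34 (1891 bp, ENSG00000133937, chr14:95234560-95236450, minus strand), was covered over most of its length by a peak of 1575 bp (chr14:95235020-95236594) with 97 fragments over 22.7 and a −log10 q of 26.6.

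The LIM-homeobox genes, which specify neuron types and the pituitary, had from 0 to 5 separate EZH2 peaks per gene. At LHX2 (ENSG00000106689, chr9:126763949-126795580, plus strand), 4 peaks covered 3515 bp. One of 1332 bp lay upstream (chr9:126761917-126763248, −log10 q of 22.1) and another of 1745 bp lay in an intron (chr9:126769882-126771626, −log10 q of 15.6), with the start of the gene record itself free of peaks. LHX6, a gene of cortical interneurons (ENSG00000106852, chr9:124964856-124991905, minus strand), also had 4 peaks. The strongest, 1356 bp wide (chr9:124990323-124991678), had 110 fragments over 26.5 and a −log10 q of 29.4, the second highest of the 34 genes, and an adjacent peak of 296 bp covered the 5′-most TSS. LHX9 (ENSG00000143355, chr1:197881032-197904608, plus strand) had a domain of 2373 bp over an internal TSS (chr1:197885141-197887513), but with a fold enrichment of only 2.14, as 87 fragments stood over a background of 40.1. LHX5 (ENSG00000089116, chr12:113899838-113910085, minus strand) had the most peaks, 5, between 180 and 501 bp wide, of which 3 lay in the gene body beyond 5 kb of a TSS. LHX4, a pituitary gene, had a peak of 1144 bp in an intron and one of 300 bp upstream, whereas LHX3, its paralog in the same organ, had a single peak of 244 bp in a coding exon (−log10 q of 4.60). LHX1, of kidney and head formation, and LHX8, of forebrain cholinergic neurons, had none, and the EZH2 peaks closest to a TSS were 115027 and 217920 bp away.

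MSX1, a gene of tooth and palate development (ENSG00000163132, chr4:4861392-4865663, plus strand), carried its EZH2 peaks upstream. The peak of 1678 bp (chr4:4857074-4858751) ended 2641 bp before the closest TSS and had 77 fragments over 20.9. MSX2, which acts in the skull, showed the same placement, with a peak of 566 bp at a distance of 3064 bp. OTX1, of the anterior brain, had a peak of 1187 bp over a TSS (chr2:63276366-63277552) with a fold enrichment of 4.13. By contrast, OTX2, its paralog in the eye and forebrain, had only peaks of 190 and 150 bp, with 15 and 16 fragments at the summit and −log10 q of 2.09 and 1.80, close to the weakest value of the list, 1.31.

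Within the IRX groups and between SIX2 and SIX3, the presence or the width of EZH2 peaks differed. In the IRX group of chromosome 5, IRX4, a gene of the heart ventricle (ENSG00000113430, chr5:1877527-1887350, minus strand), had a peak of 1225 bp (chr5:1882687-1883911, 59 fragments over 15.2, −log10 q of 13.8) and one of 223 bp, whereas IRX2 and IRX1 had none, the closest EZH2 peaks being 48328 and 64094 bp from a TSS. In the group of chromosome 16, IRX3 had a peak of 225 bp in a coding exon with 17 fragments at the summit, while IRX5 and IRX6 had no EZH2 peak within 124301 and 45208 bp of a TSS. SIX2, of kidney progenitors, had a peak of 1351 bp over its TSS (chr2:45236378-45237728, −log10 q of 12.97), and its neighbour SIX3, of the eye and forebrain, had a peak of 434 bp that lay 2451 bp upstream with 104 fragments over 49.1. SIX4, SIX5 and SIX6 had none, with the closest EZH2 peaks at 72468, 22242 and 60084 bp from a TSS and the closest PHF13 peaks at 65747, 130485 and 140005 bp.

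The DLX genes, which pattern the branchial arches and the forebrain, lie in pairs, and this was the only family with PHF13 peaks. At DLX1 (ENSG00000144355, chr2:172949468-172954405, plus strand), the PHF13 peak of 279 bp (chr2:172949464-172949742) covered the 5′-most TSS and had its summit in an intron, with 24 fragments over a background of 5.89 (3.63-fold, −log10 q of 4.74). The closest EZH2 peak was 60192 bp from a TSS. DLX2, its neighbour, had no peak of either list, with EZH2 and PHF13 peaks 44659 and 17886 bp away. At DLX4 (ENSG00000108813, chr17:48045952-48052323, plus strand), the PHF13 peak of 228 bp (chr17:48046008-48046235) began 56 bp downstream of a TSS, with its summit in untranslated exon sequence, 20 fragments over 6.84 (2.68-fold, −log10 q of 2.07). Its neighbour DLX3, a gene of skin and tooth, had EZH2 peaks of 404 bp (41 fragments over 10.6, −log10 q of 9.11) and 195 bp. DLX5 and DLX6 each had 1 narrow EZH2 peak in a coding exon, of 232 and 159 bp. Neither DLX1 nor DLX4 had an EZH2 peak, which is a count over 2 genes only. Of all protein-coding genes, 6282 had a PHF13 peak and 2533 had peaks of both lists.

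Both PHF13 peaks were weak in their own list, at rank 6175 and 16406 of 19039 by −log10 q. At a −log10 q of at least 3 only the DLX1 peak was left, and at 5 neither. Of all protein-coding genes, 21.9% and 11.0% had a PHF13 peak at these limits. The peaks at DLX1 and DLX4 were both single-copy (their median 24-mer occurred once in the genome) and CpG-rich. Their CpG ratios were 0.833 and 0.825 over 500 bp at the summit, compared with a median of 0.253 over the other 9455 PHF13 peaks at protein-coding genes. Neither held an AP-1 site in 200 bp at the summit (interval 0 to 65.8%), which 12.3% of those other peaks did, a value inside that interval. Distance to a TSS was not matched in these comparisons. The gene just outside the distance limit was MSX2, where a PHF13 peak (−log10 q of 2.15) lay 5005 bp from a TSS. With it, MSX2 would have had peaks of both lists. The next was LHX9, with a PHF13 peak at 8681 bp and a −log10 q of 6.42. Just inside the limit for EZH2 was MSX2 with 3064 bp, and the next gene outside it was EN1 with 8129 bp.

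Called PHF13 peaks were also less common in the surroundings of these genes. Within 50 kb of a TSS, a distance set after the values were seen, PHF13 peaks were found for only 9 of the 34 genes, compared with 57.4% of all protein-coding genes. The median distance to the closest PHF13 peak was 107140 bp for the 34 genes and 35999 bp for all protein-coding genes, with a maximum of 1019264 bp at DLX5. Neighbours such as DLX5 and DLX6 had the same closest PHF13 peak but were counted separately, and gene density was not matched. For EZH2, 27 of the 34 genes had a peak within 50 kb, compared with 58.7%, and the median distance was 1686.5 bp compared with 34292.5 bp. Peaks of both lists lay within 50 kb of a TSS for 7 of the 34 genes, IRX4, DLX2, DLX3, DLX4, LHX4, LHX9 and MSX2, compared with 36.1% of all protein-coding genes.

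**Figure D2:**
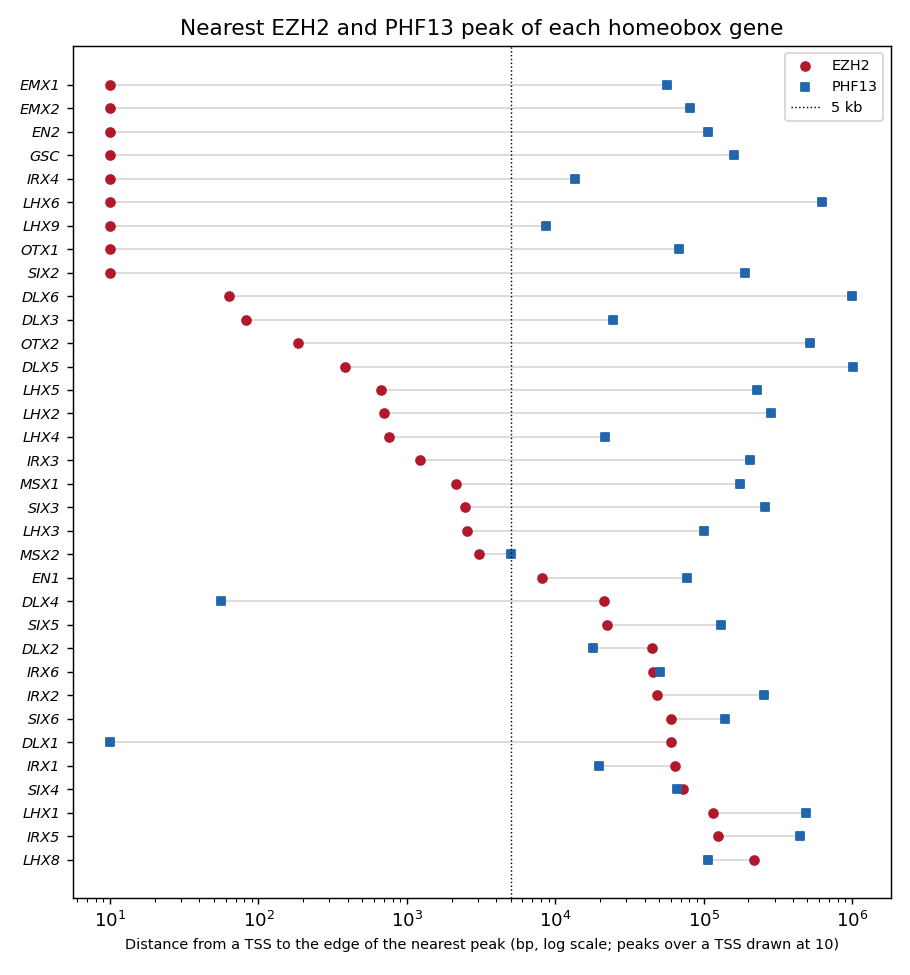
Distance from a TSS to the edge of the nearest EZH2 peak (red circles) and the nearest PHF13 peak (blue squares) for each of the 34 genes, in bp on a log axis, with peaks that cover a TSS drawn at 10 bp and the 5 kb limit as a dotted line. EZH2 lies closer than PHF13 at most genes, and both symbols are left of the limit at none.

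As a group, the EZH2 peaks at these genes were CpG-rich, and 13 of them exceeded 1 kb. Both traits were also common in the EZH2 peaks at the other developmental homeobox genes counted below. The intervals given for peaks take the 38 as independent. However, they come from 21 genes and 18 of them are at LHX genes, so the intervals may be too narrow. The median width was 392 bp (95% order-statistic interval 226 to 1144), compared with 233.5 bp in the other 10696 EZH2 peaks at protein-coding genes, a value inside that interval. Among peaks within 1 kb of a TSS, however, the medians were 475 and 470 bp. A width over 1 kb was found for 13 of 38 peaks (34.2%, 21.2 to 50.1), compared with 13.1% of the others. Among peaks within 1 kb of a TSS, the shares were 43.5% (25.6 to 63.2) and 30.0%, so the interval held the value of the others. The 13 peaks over 1 kb held 75.6% of the covered sequence. At least 1 such peak was present at 12 of the 34 genes (EMX1, EMX2, EN2, GSC, IRX4, LHX2, LHX4, LHX6, LHX9, MSX1, OTX1 and SIX2), compared with 7.35% of all protein-coding genes and 9.36% of those with a CpG-rich start. The median CpG ratio at the summit was 0.783, compared with 0.335, and 29 of 38 peaks (76.3%) had a ratio of at least 0.6, compared with 31.5%. For the CpG ratio, distance to a TSS was not matched between the peaks compared. All 38 peaks were single-copy, which was the case for 81.0% of the others. None overlapped a PHF13 peak (interval 0 to 9.18%), compared with 4.66% of the others, a value inside that interval.

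The summits lay in introns at 15 peaks, upstream of the gene at 13, in coding exons at 7 and in untranslated exon sequence at 3. A TSS was covered by 10 of the 38 peaks, and by 9 of the 13 that exceeded 1 kb. Of the 34 genes, 17 had an EZH2 peak with a −log10 q of 5 or more, compared with 16.4% of protein-coding genes.

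The CpG ratio at the gene start did not separate the genes with an EZH2 peak from those without. Its median was 0.726 in the 21 genes with a peak (range 0.266 to 1.05) and 0.783 in the 13 without (0.530 to 0.974), and 12 of these 13 had a CpG-rich start. LHX6 and LHX2, with the lowest ratios (0.266 and 0.289), were among the genes with the most EZH2-covered sequence. These ratios describe the 5′ end of the gene record only. At the summits of their peaks over 1 kb, the CpG ratio was 0.761 for LHX6 and 0.851 and 0.946 for LHX2.

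The EZH2 peaks at these genes had both many fragments and a high local background. The background is the expected number of fragments from the input, with a floor at the genome-wide mean. The median summit at the 34 genes held 54 fragments (interval 48 to 69), compared with 26 in the other EZH2 peaks at protein-coding genes, and the median local background was 22.6 (15.2 to 25.4) compared with 7.76, where the floor was 4.42. The fold enrichment had a median of 2.75 (2.42 to 3.20), compared with 3.14 in the others, a value inside that interval. Thus, these peaks were higher in fragments but not in fold enrichment. Adjacent peaks of the same gene could have nearly equal backgrounds, such as 26.3, 26.5 and 26.2 at LHX6, which these intervals do not take into account. The lowest backgrounds of the 38 peaks, 4.42 and 4.425, were at IRX3 and OTX2. The part of the input in the width and number of these peaks was not tested.

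**Figure D3:**
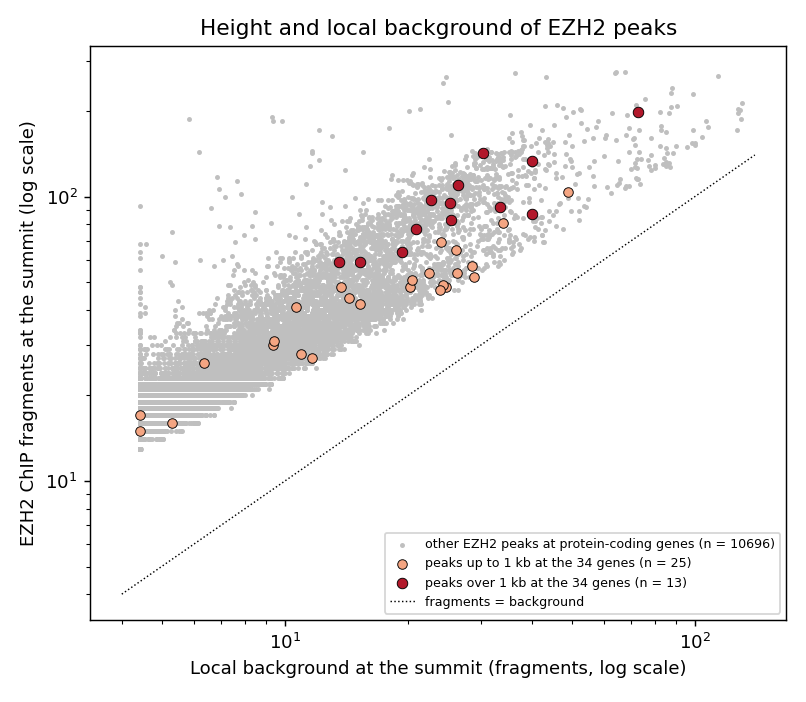
EZH2 fragments at the summit against the local background, both on log axes, for the 38 peaks at the 34 genes (dark red over 1 kb wide, orange up to 1 kb) and the 10696 other EZH2 peaks at protein-coding genes (grey), with equality as a dotted line. The peaks at these genes lie mostly at high background, with medians of 22.6 and 54 fragments compared with 7.76 and 26.

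The same input was the control of both lists, so the number of fragments a PHF13 call would have needed at these summits was computed. On the scale of the PHF13 list, the background at the 38 EZH2 summits would have required 13 to 100 fragments, with a median of 39.5, to reach the lowest −log10 p in that list (3.62), compared with 13 at the floor. These numbers include the background fragments themselves and hold for the 21 genes with an EZH2 peak only. The part of the background in the absence of PHF13 peaks was not tested. The conversion used the ratio of both floors, 0.956. In 411 pairs of overlapping peaks with summits within 10 bp and an EZH2 background over 10, the backgrounds themselves had a median ratio of 1.04 (quartiles 0.908 and 1.10).

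Other homeobox genes were counted to place these values. Of 51 other developmental homeobox genes, among them the NKX, PITX, ALX and TLX families, 40 (78.4%, 65.4 to 87.5) had an EZH2 peak, 28 had one over 1 kb and 5 had a PHF13 peak. All 5 of these also had an EZH2 peak, and at 2 the peaks overlapped. Of the 39 HOX genes, which specify position along the body axis, 14 (35.9%, 22.7 to 51.6) had an EZH2 peak and 11 (28.2%, 16.5 to 43.8) had a PHF13 peak. Of 23 broadly expressed homeobox genes, such as PBX, MEIS and TGIF, 12 had an EZH2 peak and 15 a PHF13 peak, the latter at 7 genes when only 5 kb around a TSS was counted. The intervals of the 34 genes and of the other developmental homeobox genes overlapped for EZH2 as well as for PHF13, and no difference between the lists was tested. Of 78 EZH2 peaks at the other developmental homeobox genes, 37.2% exceeded 1 kb and 74.4% had a CpG ratio of at least 0.6. All were single-copy. Their summits had medians of 50 fragments and of 13.6 for the background, compared with 54 and 22.6 at the 34 genes. Of 17 EZH2 peaks at HOX genes, 17.6% exceeded 1 kb, 58.8% reached that CpG ratio and all were single-copy.

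**Figure D4:**
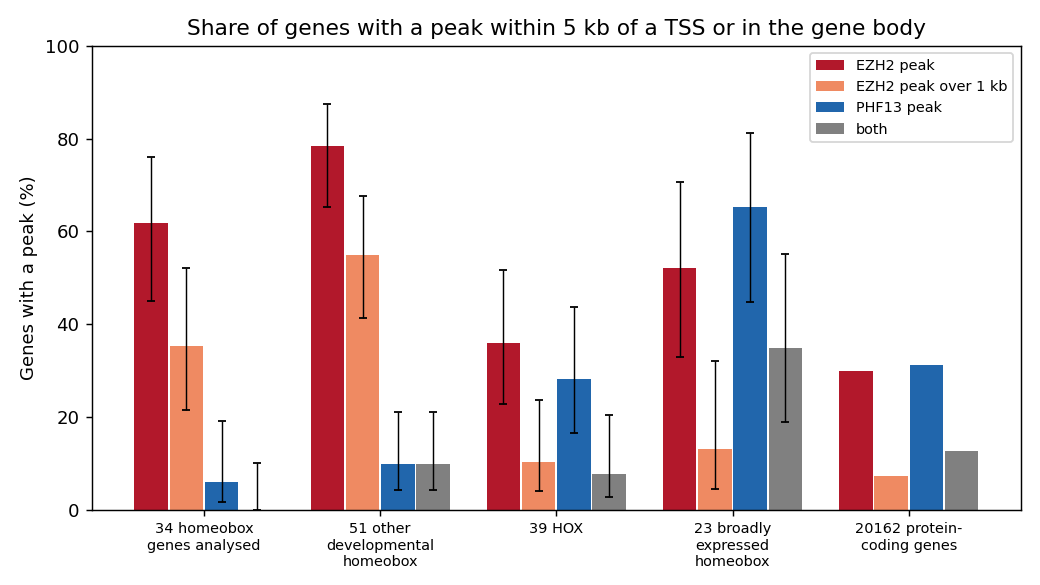
Percent of genes with an EZH2 peak, an EZH2 peak over 1 kb, a PHF13 peak, or peaks of both lists within 5 kb of a TSS or in the gene body, for the 34 genes, 3 other homeobox lists and all 20162 protein-coding genes. Bars start at 0, and the lines on the 4 homeobox lists are 95% Wilson intervals, which cover counting error only. The 34 genes reach 61.8% for EZH2 and 5.88% for PHF13, compared with 30.0% and 31.2% of all protein-coding genes.

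Peak density differed between chromosomes. Chromosomes 4 and 14, which hold MSX1, GSC, OTX2, SIX4 and SIX6, had 3.55 and 4.13 peaks per Mb in the EZH2 list and 2.14 and 2.25 in the PHF13 list. The densities on the 10 other chromosomes with genes of these families were 5.32 to 12.5 and 4.01 to 9.30. The part of this difference in the peaks at SIX4, SIX6 and OTX2 was not tested.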

How the data were processed

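According to the methods and the submitters' processing notes, the authors trimmed reads with Trim Galore 0.4.1, aligned them to hg19 with Bowtie2 2.4.1, took out duplicates in Picard, and ran MACS2 2.2.7.1 with the input as control. The deposited columns are the fold enrichment at the summit (a ratio), the p-value and q-value on the −log10 scale, and a score that restates the −log10 q. The deposited lists reach a −log10 q of 1.30 (PHF13) and 1.31 (EZH2), looser than the limit the methods give for PHF13, and the EZH2 list holds narrow peaks although broad calling is described. They were used as deposited.

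Genes came from GENCODE release 44 lifted to GRCh37; coordinates are 1-based. All 34 gene names matched 1 protein-coding gene each. Fragments and background at each summit were solved from fold enrichment and p (relative tolerance 0.0001), with 1 solution for 100% of peaks. Total read numbers are unknown. Copy number was the median genome-wide count of the 24-mers in 100 bp at the summit. More values are given for genes with a PHF13 peak, genes without an EZH2 peak, the 10 genes with most EZH2-covered sequence and the 5 with the highest EZH2 −log10 q. Not every value is printed for each of these, and the rest have ranges or single values. The genes and lists were chosen with earlier results of these data known, and the shares among CpG-rich or short genes, the fragments a PHF13 call would need and the 50 kb counts were added after values were seen. Peak assignment, overlap and the fragment solution were tested on simulated data. Python 3.11.15, numpy 2.4.6, pandas 2.3.3, scipy 1.17.1 and numba 0.67.0 were used.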

Additional observations from a re-analysis of the deposited data

How the results depend on the processing

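No paired analysis was possible because each antibody had 1 library. Every alternative narrowed the rule, so counts of genes could only fall. Of 41 alternative values, 15 belonged to counts that were already 0 and could not change, and 23 of the others stayed within 1.5 times the reported count or within the interval of the reported median or share. The number of genes with a PHF13 peak was 1 at a −log10 q of at least 3 and 0 at a −log10 q of at least 5. The shares of all protein-coding genes at these limits were 21.9% and 11.0%. The share of EZH2 peaks over 1 kb was 52.0% at a −log10 q of at least 5, compared with 33.4% in the other EZH2 peaks at protein-coding genes. The number of genes with an EZH2 peak ranged from 16 (within 1 kb of a TSS) to 21 (also the main rule). The shares of all protein-coding genes under these 2 rules were 16.6% and 30.0%. Read totals are unknown, so what depth limits could not be given beyond the fragments at each summit.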

Other observations

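Several EZH2 peaks at these genes also overlapped a non-coding gene on the same interval. These were DLX6-AS1 at the DLX6 peak, EMX2OS at the EMX2 peak, IRX4-AS1 at both IRX4 peaks, LHX2-AS1 at the intronic LHX2 peak of 1745 bp, LHX5-AS1 at the upstream LHX5 peak, OTX2-AS1 at the upstream OTX2 peak and LINC01833 at the SIX3 peak. A peak there cannot be assigned to either gene of the pair from these lists.

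The surroundings also differed between genes. Within 50 kb of a TSS, IRX4 had 8 EZH2 peaks, and SIX2, MSX1 and DLX4 had 6 each, although DLX4 itself had none by the rule used here. IRX1, IRX5, DLX1, SIX4, SIX6, LHX1 and LHX8 had 0 within that distance. The gene farthest from an EZH2 peak was LHX8, with the closest at 217920 bp and the closest PHF13 peak at 106571 bp.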
